A study of Mus musculus with 39 samples.

Results

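Skeletal muscle of mice with letrozole-induced polycystic ovary syndrome (PCOS) was compared with muscle of control mice, both given vehicle. The comparison used 8 of the 39 RNA-seq libraries of the study, chosen by tissue and treatment as labelled and not by any measured value. It held 4 PCOS vehicle libraries (mice 770, 773, 785 and 814) and 4 control vehicle libraries (mice 789, 801, 802 and 804), each from a separate mouse. The study also sequenced liver and white adipose tissue (WAT), and a further arm of PCOS mice given roxadustat, a drug that stabilises the hypoxia-inducible factors (HIF) by blocking their prolyl hydroxylases.

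All mice were of the C57Bl6/J strain. The PCOS mice had been treated with letrozole before puberty, and from 12 weeks of age they were given vehicle by mouth for 6 weeks before the tissues were taken. The control mice received vehicle, and the labels do not mention letrozole for them. Their age at the start, 12 weeks, and their 6 weeks of treatment were the same. The labels do not say which muscle was sampled, so the fibre mix of the tissue is known only from its transcripts.

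Letrozole blocks aromatase, the enzyme that turns androgens into oestrogens, and is used in mice to raise androgens and bring about features of PCOS. Skeletal muscle responds to androgens, which act on fibre growth, on contractile and metabolic genes and, in mouse muscle, on the genes of polyamine synthesis. Polyamines are small charged metabolites that bind nucleic acids and are needed for growth. S-adenosylmethionine decarboxylase, encoded by Amd1, supplies the aminopropyl groups for spermidine and spermine.

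Expression is given in FPKM, fragments per kilobase scaled for library depth, as deposited by the authors. The 8 libraries held 14332757 to 18627919 reads and 18684 to 20053 genes with a read. The 15 skeletal muscle markers summed to 90177 to 122930 FPKM in PCOS mice and 82751 to 102050 FPKM in control mice, led by skeletal actin (Acta1). Spearman correlations between libraries were 0.966 to 0.981 within an arm and 0.965 to 0.980 between arms. Several libraries stood apart. PCOS mouse 773 held liver transcripts, with albumin (Alb) at 62.8 FPKM against at most 5.20 FPKM in the other 7 libraries. The liver markers summed to 189.9 FPKM in mouse 773 and to at most 43.7 FPKM in the others, reached in control mouse 804. Not every marker was highest in mouse 773. Cyp2e1 was at 11.55 FPKM there, and at 21.1 and 37.0 FPKM in control mice 801 and 804. PCOS mouse 770 had 227 FPKM of the glycolytic gene Gapdh, where the other 7 libraries had 7.40 to 13.5 FPKM and the 4 roxadustat libraries 123 to 217 FPKM. What set these libraries apart was not tested, and counts of called genes are given without each library in turn.

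Few genes differed between the arms. Of 13438 genes tested, 14 were called (0.104%) at an adjusted p under 0.05, using limma on log2(FPKM + 0.5) with Benjamini-Hochberg adjustment over all genes tested. The 12 genes that rose (0.0893%) were Actr3b, Odf3l2, 1700001O22Rik, Amd1, its copies Amd-ps4 and Amd-ps3, Mettl21c, Cbr2, Cdk19, Tfcp2l1, Serpinb6a and Fam131a. The 2 that fell (0.0149%) were H19 and Stc2. Over all genes tested 6468 were higher and 6970 lower, with a median log2 difference of -0.0073, and 849 genes had an unadjusted p under 0.05.

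**Figure D1:**
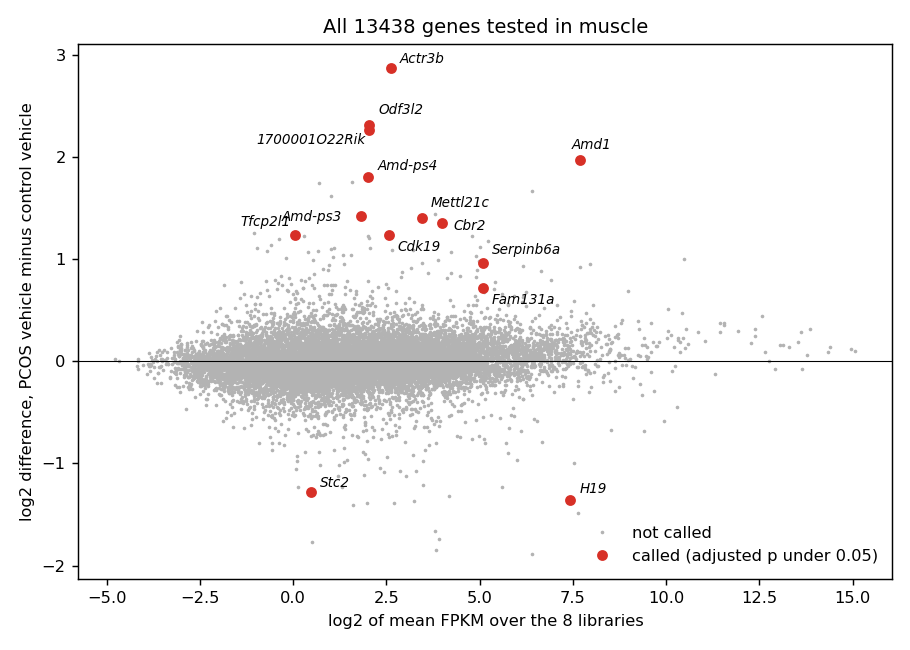
Each point is 1 of the 13438 genes tested in muscle. The horizontal axis is the log2 of mean FPKM over the 8 libraries and the vertical axis the log2 difference of PCOS vehicle minus control vehicle. The 14 called genes are red, and Actr3b has the largest difference among them at 2.87.

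The number of calls changed when single mice were left out. Such a fit also has fewer libraries, and what moved the count was not tested. Mouse 770 had the lowest value of the PCOS arm in 10 of the 12 genes that rose, and mouse 785 the highest in 7. Without mouse 770 there were 22 calls, 13 of them among the 14. Leaving out mouse 814 gave 4 calls, mouse 785 gave 7 and mouse 773 gave 14. Leaving out control mouse 789, 802 or 804 gave 7 each, and control mouse 801 gave 8. Actr3b, Cbr2, Tfcp2l1 and Cdk19 stayed called without any 1 mouse. Amd1 and Stc2 lost their call without mouse 814, and H19 without mouse 785, 814 or 804. The other 7 called genes lost it without at least 5 of the 8 mice in turn.

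**Figure D2:**
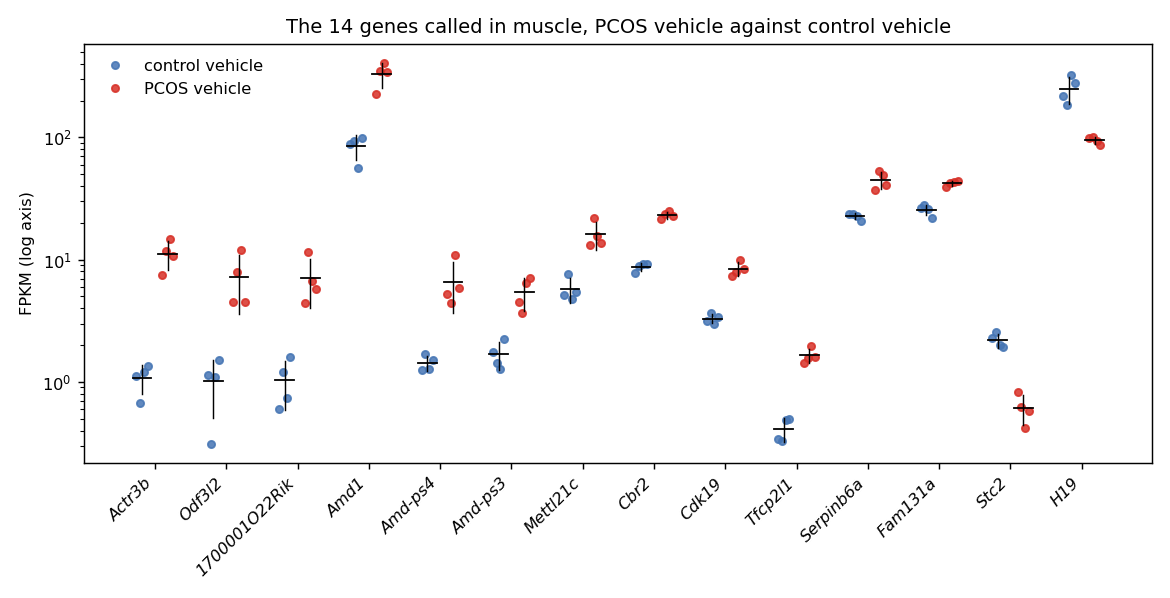
FPKM of the 14 called genes in muscle on a log axis, with 1 point per mouse, control vehicle in blue and PCOS vehicle in red. Horizontal bars are means and vertical bars ± 1 SD (n = 4 mice per arm). The arms do not overlap in any of these genes, which 3.78% of all genes tested also show.

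Amd1 was the most abundant of the genes that rose. It lies on the minus strand of chromosome 10 at 40163454 to 40178184 (mm39, as in the authors' files). Its level was 225, 351, 403 and 342 FPKM in PCOS mice 770, 773, 785 and 814, and 87.8, 93.5, 56.0 and 99.6 FPKM in control mice 789, 801, 802 and 804, the order of mice used throughout. The lowest PCOS mouse was above the highest control mouse. Mean levels were 330.5 ± 75.2 FPKM (SD, n = 4) and 84.2 ± 19.4 FPKM (SD, n = 4), a ratio of 3.92, and the log2 difference was 1.97 ± 0.22 (SE, limma adjusted p = 0.00700). The reads behind a value numbered 2774 to 16379. Its neighbour Cdk19, 37375 bases away with 0 tested genes between them, rose as well and is described further on.

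3 copies of Amd1 were listed beside it, and reads of one can be assigned to another where their sequences match. The match was measured for Amd2 and Amd-ps4 and not for Amd-ps3. The processed pseudogene Amd-ps4 on chromosome 4 (51253025 to 51254027, minus strand) had 5.24, 4.42, 10.96 and 5.85 FPKM in PCOS mice and 1.26, 1.68, 1.28 and 1.51 FPKM in control mice. It rose with a log2 difference of 1.81 ± 0.23 (SE, limma adjusted p = 0.0200). The processed pseudogene Amd-ps3 rose by 1.42 ± 0.21 on the same scale (SE, limma adjusted p = 0.0455), from 1.68 ± 0.434 to 5.43 ± 1.61 FPKM (SD, n = 4 each). The gene Amd2 did not pass, with 3.49, 5.19, 8.52 and 6.07 FPKM in PCOS mice, 2.93, 2.14, 1.11 and 2.61 FPKM in control mice and a log2 difference of 1.22 ± 0.28 (SE, limma adjusted p = 0.253). Relative to Amd1 in the same library, Amd2 was at 1.48% to 2.11% in PCOS mice and 1.99% to 3.33% in control mice. Amd-ps4 was at 1.26% to 2.72% and 1.43% to 2.29% of Amd1. Whether the copies were transcribed themselves or received reads of Amd1 cannot be told apart from these tables.

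The likeness of the copies is shown by a stretch of 90 bases of the Amd1 coding sequence, coding positions 709 to 798, with the same stretch of Amd2 and Amd-ps4. The sequences are GENCODE transcripts of build GRCm38, at chr10:40290184-40290273, chr10:35710762-35710851 and chr4:51253232-51253321, all on the minus strand. The capital marks the base that differs from Amd1.
Amd1: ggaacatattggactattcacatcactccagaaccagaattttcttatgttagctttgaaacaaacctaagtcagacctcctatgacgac
Amd2: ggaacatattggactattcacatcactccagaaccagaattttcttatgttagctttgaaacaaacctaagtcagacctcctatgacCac
Amd-ps4: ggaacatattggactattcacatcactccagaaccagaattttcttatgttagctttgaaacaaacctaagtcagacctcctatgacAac
Over the whole coding sequence of 1002 bases, Amd2 was identical to Amd1 at 1001 of 1002 aligned bases and Amd-ps4 at 997 of 1000. Of all windows of 50 bases, 94.8% in Amd2 and 79.1% in Amd-ps4 matched the Amd1 transcript exactly.

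The other genes of polyamine metabolism did not pass the test. Of the 18 tested, 12 were higher and 6 lower in PCOS mice, 1 was called (Amd1) and the median log2 difference was 0.10. In 4 of the 18 (Amd1, its copy Amd2, Smox and Oaz1) the arms did not overlap and the PCOS mice were higher (all genes tested, 1.88%). Smox encodes spermine oxidase, which turns spermine back into spermidine. It had 54.98, 209, 157 and 109 FPKM in PCOS mice and 40.8, 39.7, 25.9 and 44.1 FPKM in control mice. Each PCOS mouse was above each control mouse, mouse 770 by the least. The log2 difference of Smox was 1.67 ± 0.35 (SE, limma adjusted p = 0.210), and it passed only when mouse 770 was left out. Odc1, ornithine decarboxylase, the enzyme at the start of the pathway, overlapped between arms at 23.5 to 67.3 and 23.8 to 42.6 FPKM. Oaz1, an antizyme that directs ornithine decarboxylase to breakdown, had 203 to 246 FPKM in PCOS mice and 173 to 202 FPKM in control mice (limma adjusted p = 0.772). Sat1, the acetyltransferase that starts polyamine export and breakdown, had 4.44 to 8.93 FPKM and 7.53 to 10.5 FPKM (limma adjusted p = 0.717). Spermidine synthase (Srm) and spermine synthase (Sms) overlapped, at 5.83 to 10.3 against 6.09 to 7.94 FPKM and 23.3 to 31.8 against 23.3 to 34.2 FPKM.

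**Figure D3:**
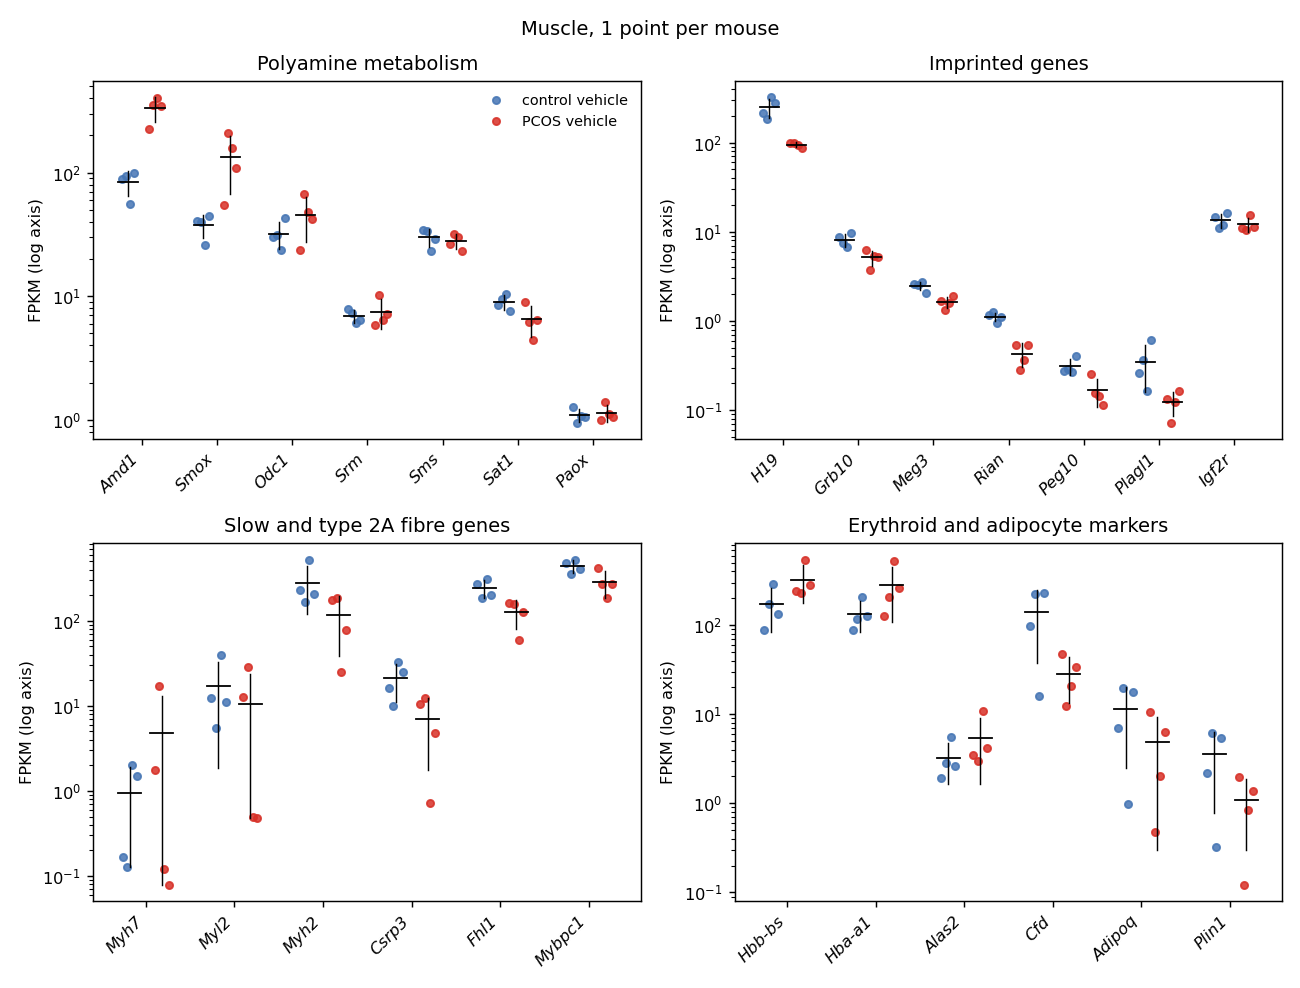
FPKM by mouse on a log axis for genes of 4 groups, control vehicle in blue and PCOS vehicle in red. Horizontal bars are means and vertical bars ± 1 SD (n = 4 mice per arm), drawn down to the lowest mouse where the SD exceeds the mean. Amd1 and H19 passed the test, and the other genes shown did not.

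Actr3b had the largest log2 difference of all genes tested. It encodes a relative of Arp3, a subunit of the Arp2/3 complex that nucleates branched actin filaments, and lies on the plus strand of chromosome 5 (25964995 to 26055686). Its level was 7.55, 11.7, 14.6 and 10.8 FPKM in PCOS mice and 1.11, 0.669, 1.21 and 1.34 FPKM in control mice. All PCOS mice were several times above all control mice, and mouse 770 was the lowest of them. The ratio of means was 10.3 and the log2 difference 2.87 ± 0.21 (SE, limma adjusted p = 0.000574). The gene for Arp3 itself, Actr3, overlapped between the arms, with 8.95 to 11.3 FPKM in PCOS mice and 10.03 to 11.4 FPKM in control mice. Actr2, the gene for Arp2, had 9.13 to 11.4 and 8.83 to 11.7 FPKM.

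Of the 21 genes of Arp2/3 and actin nucleation that were tested, 6 were higher and 15 lower, and Actr3b was the 1 that was called. Their median log2 difference was -0.08, and it turned to 0.02 when mice 773 and 802 were left out together. Cyfip2, a subunit of the WAVE complex that activates Arp2/3, had 0.325, 0.385, 0.184 and 0.215 FPKM in PCOS mice and 0.853, 5.37, 2.07 and 1.90 FPKM in control mice. The PCOS mice were all lower, and the control mice spread widely. The difference did not pass, at -1.77 ± 0.35 on the log2 scale (SE, limma adjusted p = 0.191).

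Regulators of transcription were among the genes that rose. Cdk19 encodes a kinase of the Mediator complex, the paralog of Cdk8, and lies on the plus strand of chromosome 10 (40215560 to 40359814), where an antisense gene, Cdk19os, overlaps it. Cdk19 was at 7.35, 7.99, 10.02 and 8.46 FPKM in PCOS mice and 3.17, 3.64, 2.99 and 3.38 FPKM in control mice. Within each arm the mice were close together and the arms were far apart. Its log2 difference was 1.23 ± 0.12 (SE, limma adjusted p = 0.00445) and the ratio of means 2.57. It was the 1 gene called among 31 of the Mediator complex. Of the 31, 17 were higher and 14 lower, with a median log2 difference of 0.03. The median turned negative without mouse 802 and without mice 773 and 802. In the fit to recovered reads it was -0.06, where the median of all genes was itself -0.097. Cdk8 overlapped between the arms, with 2.24 to 2.66 FPKM in PCOS mice and 1.79 to 2.59 FPKM in control mice.

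Tfcp2l1 encodes a transcription factor of the CP2 and grainyhead family that is known from pluripotent stem cells and kidney ducts. It lies on the plus strand of chromosome 1 (118555675 to 118612898), where the files also list an antisense 5S_rRNA gene. Its level was 1.43, 1.58, 1.95 and 1.61 FPKM in PCOS mice and 0.339, 0.330, 0.485 and 0.497 FPKM in control mice. These are low levels, but with 38 to 211 reads per library the arms did not overlap. The log2 difference was 1.23 ± 0.12 (SE, limma adjusted p = 0.00445) and the ratio of means 3.98.

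The remaining genes that rose encode enzymes, an inhibitor and proteins of less known function. Cbr2, a carbonyl reductase (chromosome 11, 120620315 to 120622940, minus strand), was at 21.4, 23.8, 24.8 and 22.7 FPKM in PCOS mice and 7.80, 8.85, 9.28 and 9.18 FPKM in control mice. The mice of each arm lay close together, with means of 23.2 ± 1.49 and 8.78 ± 0.678 FPKM (SD, n = 4 each). Its log2 difference was 1.35 ± 0.10 (SE, limma adjusted p = 0.000574).

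Mettl21c, a lysine methyltransferase found mainly in muscle (chromosome 1, 44048568 to 44059194, minus strand), was at 13.2, 22.1, 15.6 and 13.6 FPKM in PCOS mice and 5.13, 7.62, 4.80 and 5.42 FPKM in control mice. Mouse 773 was highest in its arm and mouse 801 in the other. The log2 difference was 1.40 ± 0.19 (SE, limma adjusted p = 0.0213). Of the 15 tested genes of this methyltransferase family and its relatives, 9 were higher and 6 lower, and the 1 called was Mettl21c. Their median of 0.04 turned negative without mouse 802 and without mice 773 and 802. In the fit to recovered reads it was -0.04, where the median of all genes was itself -0.097. Among the others, Mettl21e, a close relative also known from muscle, overlapped between the arms at 0.815 to 1.502 and 0.723 to 1.89 FPKM.

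Serpinb6a, an inhibitor of serine proteases inside cells (chromosome 13, 34101901 to 34186777, minus strand), was at 36.9, 52.6, 49.4 and 41.1 FPKM in PCOS mice and 23.7, 23.8, 22.7 and 20.7 FPKM in control mice. The control mice hardly varied and the PCOS mice were all above them. The log2 difference was 0.96 ± 0.13 (SE, limma adjusted p = 0.0213). Its span overlaps Nqo2 and Ripk1 on the other strand. Fam131a (chromosome 16, 20511991 to 20521798, plus strand) rose by 0.72 ± 0.10 on the log2 scale (SE, limma adjusted p = 0.0398), from 22.1 to 28.0 FPKM in control mice to 39.5 to 44.2 FPKM in PCOS mice. It overlaps Clcn2 on the other strand. The labels describe both a stranded and an unstranded protocol and do not say which was used, so reads of overlapping genes may be shared.

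1700001O22Rik (chromosome 2, 30684781 to 30693673, minus strand) was at 4.398, 11.4, 6.73 and 5.73 FPKM in PCOS mice and 0.603, 1.21, 0.745 and 1.60 FPKM in control mice. The PCOS mice spread more widely than the controls and did not overlap with them. The log2 difference was 2.27 ± 0.28 (SE, limma adjusted p = 0.0157). Odf3l2 (chromosome 10, 79475360 to 79481572, minus strand) was at 4.47, 7.87, 12.1 and 4.49 FPKM in PCOS mice and 1.15, 0.312, 1.09 and 1.52 FPKM in control mice. It rested on 6 to 25 reads per control library. Its log2 difference was 2.31 ± 0.34 (SE, limma adjusted p = 0.0455).

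H19 was the more abundant of the 2 genes that fell. It is a long non-coding RNA expressed from the maternal allele beside the growth factor gene Igf2, and lies on the minus strand of chromosome 7 (142129262 to 142131886). Its level was 98.7, 100.4, 94.2 and 86.6 FPKM in PCOS mice and 216, 183, 323 and 276 FPKM in control mice. The PCOS mice lay within a narrow range, and the control mice were all well above it. Mean levels were 95.0 ± 6.18 and 249.7 ± 62.1 FPKM (SD, n = 4 each), a ratio of 0.380, and the log2 difference was -1.36 ± 0.17 (SE, limma adjusted p = 0.0157).

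Other imprinted growth genes were lower without passing the test. Of 19 tested, 15 were lower and 4 higher, with a median log2 difference of -0.19, and 1 was called (H19). In 6 of them, H19 included, all PCOS mice were below all control mice (all genes tested, 1.91%). Rian, a maternally expressed RNA of the Dlk1-Dio3 region, was at 0.538, 0.280, 0.366 and 0.539 FPKM in PCOS mice and 1.16, 1.25, 0.954 and 1.10 FPKM in control mice. Its neighbour Meg3 was at 1.66, 1.34, 1.57 and 1.91 FPKM in PCOS mice and 2.60, 2.54, 2.70 and 2.08 FPKM in control mice. Both were lower in every PCOS mouse. The log2 differences were -0.80 ± 0.13 for Rian (SE, limma adjusted p = 0.0701) and -0.49 ± 0.13 for Meg3 (SE, limma adjusted p = 0.401). Grb10, which encodes an adaptor that dampens insulin and growth factor receptors, was at 3.77 to 6.18 FPKM in PCOS mice and 6.66 to 9.73 FPKM in control mice (limma adjusted p = 0.396). Plagl1 and Peg10 were below 0.7 FPKM in all 8 libraries. Igf2 itself was at 0.0139 to 0.313 FPKM in PCOS mice and 0.125 to 0.383 FPKM in control mice, and Igf2r, the receptor that clears it, overlapped at 10.6 to 15.4 and 11.02 to 16.2 FPKM.

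Stc2 encodes stanniocalcin 2, a secreted glycoprotein that inhibits a protease acting on insulin-like growth factor binding proteins, and it is a known target of HIF. It lies on the minus strand of chromosome 11 (31307307 to 31320074). Its level was 0.831, 0.620, 0.422 and 0.575 FPKM in PCOS mice and 2.28, 2.55, 2.01 and 1.93 FPKM in control mice. All PCOS mice were below all control mice, on 25 to 203 reads per library. The log2 difference was -1.28 ± 0.14 (SE, limma adjusted p = 0.00700) and the ratio of means 0.279.

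Other HIF targets did not move as a group. Of 37 tested, 17 were higher and 20 lower with a median of -0.0013 whose sign changed under 4 alternatives, and Stc2 was the 1 called. Egln3, an oxygen-sensing prolyl hydroxylase that is itself induced by HIF, was singled out after its values were seen. It was at 11.7, 16.4, 6.36 and 7.89 FPKM in PCOS mice and 27.4, 22.8, 24.6 and 27.9 FPKM in control mice. The PCOS mice were all lower, and the log2 difference of -1.32 ± 0.24 did not pass (SE, limma adjusted p = 0.116), although it passed without mouse 773 (limma adjusted p = 0.0233), in the fit to recovered reads and with libraries weighted by quality. Vldlr, a lipoprotein receptor, was higher in each PCOS mouse at 24.8 to 34.7 against 18.3 to 24.5 FPKM (limma adjusted p = 0.559). The angiogenic factor Vegfa overlapped at 62.8 to 90.7 and 51.5 to 80.1 FPKM.

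**Figure D4:**
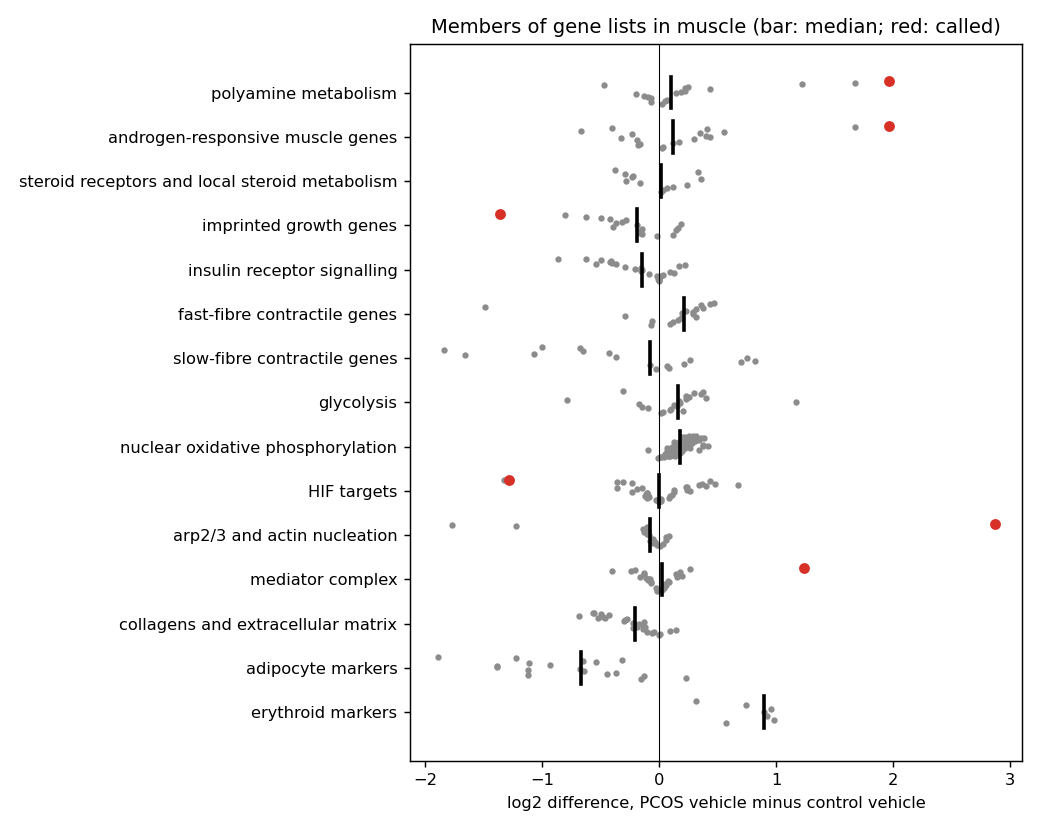
Log2 difference of PCOS vehicle minus control vehicle in muscle for each tested member of 15 gene lists, with 1 point per gene. The vertical bar is the median of the list and red marks a called gene. The median is lowest for adipocyte markers (-0.66) and highest for erythroid markers (0.89), and neither list has a called gene.

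The 12 genes next in order of p did not pass, with limma adjusted p of 0.0588 to 0.116. They were Nt5dc2, Rian, Lgals1, Slc30a2, Slc2a3, Tbc1d1, Galnt17, Mib1, Gm11967, Znhit2, Fscn2 and Ppp1r14b, and in all 12 the arms did not overlap (all genes tested, 3.78%), which their choice by p largely fixes. Slc30a2, a zinc transporter, was at 1.54, 4.45, 4.29 and 2.98 FPKM in PCOS mice and 0.685, 1.001, 0.643 and 0.425 FPKM in control mice. Slc2a3, the glucose transporter GLUT3, was at 1.10, 1.72, 1.61 and 0.915 FPKM in PCOS mice and 0.546, 0.305, 0.296 and 0.470 FPKM in control mice. Lgals1, the secreted lectin galectin 1, had 216 to 229 FPKM in PCOS mice and 140.2 to 158 FPKM in control mice, a log2 difference of 0.59 ± 0.10 (SE, limma adjusted p = 0.0721). For each of these the PCOS mice were the higher. Mib1, a ubiquitin ligase of Notch signalling with 14.02 to 18.98 against 6.36 to 9.67 FPKM, overlaps the microRNA genes Mir133a-1 and Mir1b of muscle. Gm11967 had 2 reads in its lowest control library and overlaps another gene, so its reads may be shared.

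Genes known to respond to androgens in muscle were mixed. Of 19 tested, 12 were higher and 7 lower with a median of 0.12, and the 1 called was Amd1, which the polyamine list also holds. Mylk4, a myosin kinase gene known to respond to androgens in mouse muscle, was at 229, 266, 334 and 415 FPKM in PCOS mice and 259.9, 220.1, 221 and 142 FPKM in control mice. Only mouse 770 fell within the range of the controls. Its log2 difference was 0.56 ± 0.22 (SE, limma adjusted p = 0.716). The muscle growth factor Igf1 overlapped at 1.41 to 2.25 and 1.16 to 1.97 FPKM, and so did the growth inhibitor myostatin (Mstn) at 26.3 to 39.4 and 21.7 to 50.6 FPKM.

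Genes of other steroid pathways did not pass. The oestrogen receptor gene Esr1 was at 2.16 to 2.73 FPKM in PCOS mice and 2.63 to 3.63 FPKM in control mice, and the glucocorticoid receptor gene Nr3c1 at 13.2 to 16.7 and 15.5 to 21.8 FPKM. The arms overlapped in both. Of 13 tested genes for steroid receptors and local steroid metabolism, 7 were higher and 6 lower, and 0 were called. In limma 2 had an unadjusted p under 0.05 (all genes tested, 849 of 13438). Aromatase itself (Cyp19a1) was not among the genes listed in the muscle table.

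The upstream windows of the called genes were searched for the hexamer AGAACA on either strand, the core of binding sites for steroid receptors such as that of glucocorticoids. RefSeq windows of 250 bases before the start (GRCm38.p6) were found for 7 of the 14 called genes. Stc2, which fell, is among these 7. The hexamer was in windows of 2 of these 7 genes, and in 18.2% of 27025 genes overall. Another window of 1700001O22Rik, at chr2:30801738-30801987, had 0 matches. The 2 windows are shown 5′ to 3′ on the gene's strand, with the match in capitals, for 1700001O22Rik at chr2:30803665-30803914 (minus strand) and Fam131a at chr16:20694807-20695056 (plus strand).
1700001O22Rik: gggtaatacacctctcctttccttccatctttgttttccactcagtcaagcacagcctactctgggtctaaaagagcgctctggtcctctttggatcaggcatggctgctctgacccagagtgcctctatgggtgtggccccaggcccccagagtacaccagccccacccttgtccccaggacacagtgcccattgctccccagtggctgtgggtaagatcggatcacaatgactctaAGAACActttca
Fam131a: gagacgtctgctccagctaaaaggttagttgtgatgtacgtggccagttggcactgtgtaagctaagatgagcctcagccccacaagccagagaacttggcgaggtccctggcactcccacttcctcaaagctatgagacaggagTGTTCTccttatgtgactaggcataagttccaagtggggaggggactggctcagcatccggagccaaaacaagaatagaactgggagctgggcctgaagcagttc
The match lay 6 bases before the start in the first and 99 bases in the second. The full palindrome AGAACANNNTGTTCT, a pair of hexamers that overlap the search above, was in 0 of the 7 genes and in 3 genes overall. A match describes letters in these windows and says nothing of binding.

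Genes of insulin receptor signalling were lower more often than higher, without a call. Of 27 tested, 20 were lower and 7 higher with a median of -0.14. In limma 8 of the lower and 0 of the higher had an unadjusted p under 0.05. Over all 13438 genes tested, 442 were lower and 407 higher at that p. Tbc1d1, a brake on the movement of the glucose transporter GLUT4 to the surface, was at 6.28, 8.43, 9.24 and 8.18 FPKM in PCOS mice and 13.997, 17.6, 16.1 and 12.5 FPKM in control mice. Its relative Tbc1d4 was at 9.79, 6.51, 8.04 and 9.09 FPKM in PCOS mice and 10.6, 12.2, 11.4 and 13.7 FPKM in control mice. Every PCOS mouse was below every control mouse in both, as in 4 of the 27 (all genes tested, 1.91%). In 1 of the 27 every PCOS mouse was above (all genes tested, 1.88%). The log2 differences were -0.87 ± 0.15 for Tbc1d1 (SE, limma adjusted p = 0.0903) and -0.50 ± 0.14 for Tbc1d4 (SE, limma adjusted p = 0.478). Foxo3, a transcription factor that insulin restrains, was at 3.62 to 5.19 and 5.47 to 6.71 FPKM (limma adjusted p = 0.601). The genes for GLUT4 (Slc2a4), the insulin receptor (Insr) and its substrate Irs1 overlapped, with 184 to 238 against 205 to 224 FPKM, 6.04 to 7.96 against 6.61 to 8.69 FPKM and 3.78 to 7.20 against 3.04 to 8.17 FPKM.

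The genes of muscle breakdown did not pass either. Of 21 tested, 8 were higher and 13 lower with a median of -0.08. The ubiquitin ligase Fbxo32 (atrogin 1) was at 53.2 to 75.8 FPKM in PCOS mice and 58.0 to 90.5 FPKM in control mice, and Trim63 (MuRF1) at 88.4 to 109 and 82.8 to 117 FPKM. Klf15, a transcription factor induced by glucocorticoids, was at 21.4, 20.8, 17.1 and 22.5 FPKM in PCOS mice and 25.05, 26.4, 30.01 and 27.2 FPKM in control mice. Its arms did not overlap and the log2 difference was -0.41 ± 0.11 (SE, limma adjusted p = 0.477). Igfbp5, a growth factor binding protein of muscle, was higher in each PCOS mouse, at 126 to 193 against 64.1 to 112 FPKM (limma adjusted p = 0.262). Musk, the receptor kinase of the neuromuscular junction, was at 1.77 to 3.005 and 0.869 to 1.74 FPKM (limma adjusted p = 0.337).

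Slow-fibre and type 2A genes varied widely between mice of the same arm. Slow myosin (Myh7) was at 1.77, 17.3, 0.122 and 0.0789 FPKM in PCOS mice and 0.166, 0.128, 2.003 and 1.48 FPKM in control mice. Mouse 773 was the highest of all and the arms overlapped. The type 2A myosin Myh2 was at 177, 185, 25.1 and 77.6 FPKM in PCOS mice and 231, 168, 514 and 204 FPKM in control mice, with mouse 785 lowest and mouse 802 highest. The stretch-responsive gene Csrp3 followed the same order at its ends, with 0.719 FPKM in mouse 785 and 33.2 FPKM in mouse 802. Mice 773 and 802 had the highest Myh7 and Myl2 (slow myosin light chain) of their arms, and without both there were 3 calls, 2 of them among the 14 (Actr3b and Cbr2).

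Among the 17 slow-fibre genes tested, 7 were higher and 10 lower with 0 called, and the median of -0.08 turned positive without mouse 785 or without mouse 802. Fhl1, a protein of the sarcomere and nucleus, was at 60.0 to 162 FPKM in PCOS mice and 187 to 309 FPKM in control mice, lower without passing (limma adjusted p = 0.510). Among the 18 fast-fibre genes, 14 were higher and 4 lower with 0 called and a median of 0.22, and in 5 the PCOS mice were all higher (all genes tested, 1.88%). The Z-disc gene Myoz1 was at 1735, 1639.7, 1459 and 1589 FPKM in PCOS mice and 1286, 976, 1290.3 and 1096 FPKM in control mice. Tropomyosin 1 (Tpm1) was at 3298 to 3428 FPKM and 2499 to 2704 FPKM. Both were higher in each PCOS mouse, with log2 differences of 0.47 ± 0.14 (SE, limma adjusted p = 0.504) and 0.36 ± 0.13 (SE, limma adjusted p = 0.647). The fast myosin Myh4 overlapped, at 13001 to 22288 and 9447 to 16272 FPKM.

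Nuclear genes of oxidative phosphorylation and genes of glycolysis were mostly slightly higher, without a call. Of 71 nuclear genes of oxidative phosphorylation, 69 were higher and 2 lower with a median of 0.18, and 0 were called or free of overlap between arms. Their summed level spanned 11309 to 18280 FPKM in PCOS mice and 11341 to 19467 FPKM in control mice. None of the 71 had an unadjusted p under 0.05 in limma. The median stayed between 0.08 and 0.35 under all alternatives run, among them a fit to recovered reads that lowered the median of all genes to -0.097. Glycolysis had 17 higher and 5 lower of 22 with a median of 0.16, and 5 genes whose PCOS mice were all higher (all genes tested, 1.88%), such as Pgam2 at 2793 to 3518 against 2184 to 2718 FPKM and Pkm at 1047 to 1332 against 856 to 1028 FPKM. Neither passed, with limma adjusted p of 0.711 and 0.773. Pdk1, which had the lowest p of the glycolysis list, was lower and did not pass (limma adjusted p = 0.647). Its arms overlapped, at 10.5 to 13.2 FPKM in PCOS mice and 13.1 to 15.2 FPKM in control mice. The 48 cytosolic ribosomal protein genes had 41 higher and 7 lower with a median of 0.09. Fatty acid oxidation had 16 higher and 18 lower of 34, mitochondrial biogenesis and dynamics 7 and 12 of 19, and glycogen metabolism 10 and 8 of 18. The regulator of mitochondrial biogenesis Ppargc1a overlapped at 4.68 to 5.46 and 4.27 to 5.25 FPKM.

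The 13 mitochondrially encoded mRNAs took 11.1% ± 1.49 of reads in PCOS mice and 10.9% ± 0.539 in control mice (SD, n = 4 each). The difference of 0.218 percentage points was smaller than the spread between mice (exact permutation test, two-sided, p = 0.886, where 4 against 4 allows no p below 0.0286). It turned to -0.518 without mouse 773, which had the highest share at 13.3%. For all genes on the mitochondrial chromosome the difference was 0.231 percentage points as a share of reads and -0.145 as a share of summed FPKM. The short mRNA mt-Atp8, which overlaps mt-Atp6, was at 26.9, 55.1, 28.7 and 67.1 FPKM in PCOS mice and 21.4, 9.22, 26.7 and 22.6 FPKM in control mice. It was higher in each PCOS mouse, by a narrow margin, and did not pass (limma adjusted p = 0.601).

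Whole muscle also holds fat, blood, vessels and connective tissue, and in bulk RNA fewer cells of a type and less RNA per cell cannot be told apart. Adipocyte markers were lower in 17 of 18, with 0 called and a median of -0.66. The summed level was 487 to 1032 FPKM in PCOS mice and 751 to 1582 FPKM in control mice. Cfd, adipsin, had 46.8, 12.3, 20.8 and 33.6 FPKM in PCOS mice and 96.9, 223, 16.2 and 229 FPKM in control mice. Control mouse 802 was as low as the PCOS mice, and the arms overlapped. Adiponectin (Adipoq) ranged from 0.479 to 10.5 and from 0.985 to 19.8 FPKM, and none of the 8 libraries had it at 0.

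Erythroid markers went the other way, with 7 of 7 higher, 0 called and a median of 0.89. The summed level was 486 to 1244 FPKM in PCOS mice and 238 to 623 FPKM in control mice. The beta globin gene Hbb-bs was at 243, 230.0, 543 and 279.8 FPKM in PCOS mice and 88.6, 173, 292 and 132 FPKM in control mice. Mouse 785 was highest, and mouse 802 was within the PCOS range. Collagens and extracellular matrix were lower in 25 of 28 with a median of -0.21, fibroblast markers in 11 of 13 and macrophage markers in 11 of 13. The fibroblast median turned positive when mice 773 and 802 were left out together, and the macrophage median when mouse 773 was left out, alone or with mouse 802, or when libraries were weighted by quality. Mrc1, a receptor of tissue macrophages, was at 0.578 to 1.55 FPKM in PCOS mice and 2.14 to 2.39 FPKM in control mice (limma adjusted p = 0.427). The part of these cell types in the differences of named genes was not tested.

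The muscle genes were then set against liver and WAT of the same arms, where a difference between tissues was tested as an interaction of tissue and arm in limma. Libraries of the same mouse were taken as independent in this test. Against liver, 29 of 11613 genes differed (0.25%), among them Amd1, Tfcp2l1 and Serpinb6a of the 14. Against WAT, 10 of 12699 differed (0.0787%), among them Actr3b, Cbr2, Tfcp2l1, Amd1, Stc2 and Cdk19. Without WAT PCOS mouse 785 the count against WAT was 132, without WAT control mouse 789 it was 24, and over the other libraries left out in turn it was 4 to 15. Stc2 kept its call in 12 and Cdk19 in 11 of 23 alternatives. The others of the 14 either did not pass these tests or were too low in the other tissue to be tested.

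Amd1 had a log2 difference of -0.23 ± 0.23 (SE) in liver and 0.21 ± 0.18 (SE) in WAT, against 1.97 in muscle. The muscle effect exceeded that of liver by 2.20 ± 0.32 (SE, limma adjusted p = 0.00175) and that of WAT by 1.76 ± 0.29 (SE, limma adjusted p = 0.0163). Tfcp2l1 exceeded liver by 1.53 ± 0.21 (SE, limma adjusted p = 0.00156) and WAT by 1.19 ± 0.19 (SE, limma adjusted p = 0.0129). For Actr3b the excess over WAT was 3.06 ± 0.42 (SE, limma adjusted p = 0.00537). Cbr2 was lower in WAT of PCOS mice, at -0.64 ± 0.25 (SE), and differed from muscle by 1.99 ± 0.30 (SE, limma adjusted p = 0.00977). H19 was at -0.54 ± 0.29 (SE) in WAT, and its difference from muscle did not pass (limma adjusted p = 0.516). Rian had opposite signs in muscle and liver, a difference of -1.13 ± 0.20 (SE, limma adjusted p = 0.0140), and Meg3 likewise, at -1.78 ± 0.28 (SE, limma adjusted p = 0.00583). Some of these genes were low in the other tissue. Mean levels in PCOS and control mice were 0.192 and 0.0467 FPKM for Rian in liver. In WAT they were 0.110 and 0.0898 FPKM for Tfcp2l1 and 0.241 and 0.507 FPKM for H19. The 0.5 FPKM added before the log draws such differences towards 0.

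**Figure D5:**
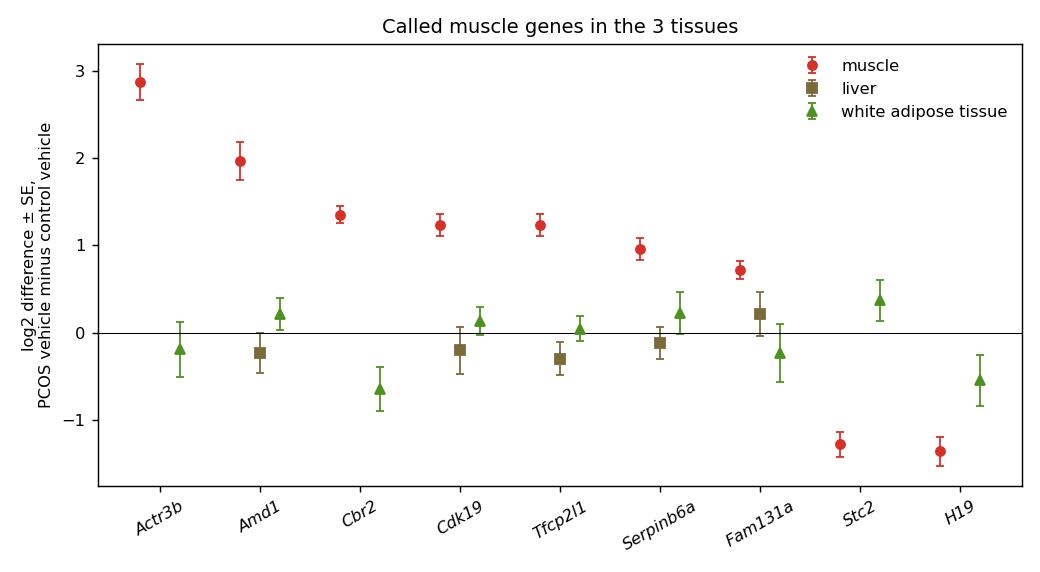
Log2 difference of PCOS vehicle minus control vehicle with its SE from limma, for 9 called muscle genes in muscle (circles), liver (squares) and WAT (triangles). A missing symbol marks a gene too low in that tissue to be tested. Amd1, Tfcp2l1 and Cdk19 lie at 1.23 or more in muscle and between -0.30 and 0.21 in the other tissues. Differences of genes low in a tissue, such as Tfcp2l1 in WAT (means of 0.110 and 0.0898 FPKM), are drawn towards 0 on this scale.

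The roxadustat arm gives 4 more PCOS muscle libraries (mice 767, 782, 795 and 808), which share the control mice with the comparison above. All 14 called genes lay outside the control range in these mice too, on the same side. Over all genes tested 3.44% lay above it and 2.78% below, but the 14 were chosen against these same control mice, so the shares give no measure of how many would lie apart without an effect. Amd1 was at 417, 282, 267 and 421 FPKM there, Actr3b at 11.8, 9.83, 9.46 and 11.5 FPKM and H19 at 78.1, 103, 85.2 and 110.1 FPKM. Smox was at 99.2 to 194 FPKM, above all control mice. Egln3 was at 5.74, 11.5, 20.3 and 28.2 FPKM and overlapped with the controls, unlike in the vehicle arm. Of the 12 genes next in order, 8 lay outside the control range.

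The authors' deposited table of this comparison called 92 of 23580 genes (0.39%), 57 higher and 35 lower. It held all 14 genes called here. Of its 92, 90 were tested here, all with the same sign, and 81 had arms that did not overlap (all genes tested, 3.78%). Those calls came from the same 8 libraries, so sign and overlap follow largely from the choice of genes. For Smox the authors' deposited table gave a log2 fold change of 1.83 and an adjusted p of 0.00404, and for Tbc1d1 a log2 fold change of -0.90 and an adjusted p of 1.46e-05, both short of the threshold in limma.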

How the data were processed

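Polyadenylated RNA from 300 ng of total RNA per tissue was sequenced. Per the submitters' processing notes the tools were CASAVA 1.8, HISAT2 2.0.5 and DESeq2 1.20.0, and the build was mm39; the counting tool and annotation are not given in the sources used here. The FPKM values, the log2 fold changes and the p-values of the authors' own test were used as deposited, under the names they have per the file headers. Multiplying FPKM by gene length and dividing by the value of 1 read in each library gave whole reads for all values within 0.001, which gave the depth of each library and the precision it allows.

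The 8 muscle libraries were grouped by their labels, 4 mice per arm. Genes with at least 10 reads in 4 libraries and 15 reads in all were tested with limma 3.58.1 (R 4.3.3) on log2(FPKM + 0.5) with a mean trend. P-values were adjusted by Benjamini-Hochberg over all genes tested, and 0.05 was the threshold. Folds on this scale understate changes of low genes, and ratios are of mean FPKM. Differences between tissues came from the interaction of tissue and arm in 1 limma fit per pair of tissues. These main fits took all libraries as independent, also those of the same mouse. The mouse number pairs muscle with liver (8 mice in both) and with WAT (6 mice), since it names the same animal. This pairing entered only an alternative fit with the mouse number as a block. The correlation within a mouse that limma estimated there was 0.0769 and -0.0414. The limma fits were also run on simulated counts with the same dispersion for all genes and no mouse set apart. These libraries differ from that, so the run gives no measure of how reliable the calls are. The mitochondrial share was compared with an exact permutation test in SciPy 1.17.1, and figures were drawn with matplotlib 3.10.9.

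Named genes were every called gene, the 12 with the next lowest p, of each gene list the called members or else up to 3 with the lowest p and a mean of at least 1 FPKM, and a set of fixed genes. Acta1, Actr2, Cyfip2, Egln3, Gapdh, Igf2, Igf2r, Meg3, Mettl21e, Myl2, Oaz1, Peg10, Plagl1, Sat1, Sms, Srm and Tsc22d3 are outside this rule and were chosen after their values were seen. Members and lists were chosen with earlier results of these data known. Alternatives were other pseudocounts, filters, scalings and weights, each mouse left out in turn, and the mouse number as a block. The roxadustat libraries of liver and WAT were not used here. Results for some genes are not reported here.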

Additional observations from a re-analysis of the deposited data

Results flagged for a closer look

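In 3 of 134 groups of 4 mice, 1 mouse lay far from the other 3, and chance alone sets apart about 1 in 20 such groups. Gapdh and Tsc22d3 were chosen after their values were seen, so that rate is no measure for them. Gapdh was at 227 FPKM in PCOS mouse 770 and at 7.40 to 13.5 FPKM in the other 3 PCOS mice. Tsc22d3, a gene induced by glucocorticoids, was at 38.4 FPKM in PCOS mouse 773 and at 54.0 to 55.8 FPKM in the others. Hbb-bs was at 543 FPKM in PCOS mouse 785 and at 230.0 to 279.8 FPKM in the others.

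The effect of PCOS differed between muscle and liver, by the interaction test in limma, in Esr1 and in 6 others of the genes described. For Esr1 the muscle effect minus the liver effect was 1.14 in log2 units (limma adjusted p = 0.0196). Its log2 difference was -0.23 in muscle and -1.37 in liver, and its call was not followed over the alternatives. For the 6 others it was 2.20 for Amd1, 1.53 for Tfcp2l1, 1.16 for Slc2a3, 1.08 for Serpinb6a, -1.13 for Rian and -1.78 for Meg3. Slc2a3 was low in liver, at means of 0.112 FPKM in PCOS mice and 0.176 FPKM in control mice, and so was Rian. Amd1, Tfcp2l1, Meg3 and Rian kept this call under all alternatives run, Serpinb6a in 13 of 21 and Slc2a3 in 10 of 20. Against WAT the difference was 3.06 for Actr3b, 1.99 for Cbr2, 1.76 for Amd1, 1.19 for Tfcp2l1, 1.10 for Cdk19 and -1.65 for Stc2. Actr3b and Cbr2 kept this call in all 23 alternatives, Amd1 in 20, Tfcp2l1 in 21 of 22, Stc2 in 12 and Cdk19 in 11.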

How the results depend on the processing

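Of the 14 called muscle genes, Actr3b and Cbr2 were called in all 18 alternatives, and 0 of 64 genes tested this way changed sign. The 64 were picked from the genes named here and include the 14, so their steady sign follows in part from that choice. Other genes given with values, such as Myh7, Esr1 and Actr3, were not among them. The count was 5 with no filter on low values, which tested 23580 genes, 27 with libraries weighted by quality, and 4 to 22 without 1 mouse. It was 3 without mice 773 and 802, an alternative chosen after seeing the data, and 12 to 17 in the others. Genes that differed between muscle and liver numbered 29, with 66 when no filter was used, 13 at a mean of at least 1 FPKM and 18 to 35 without 1 library. For muscle and WAT, 10 became 20 with no filter and 4 to 132 without 1 library, the 132 without WAT PCOS mouse 785 and 24 without WAT control mouse 789. With the mouse number as a replicate block the counts were 36 for liver and 9 for WAT. The arms within muscle share no mouse, so that comparison has no pairs. The mitochondrial share difference ran from -0.518 to 0.547 percentage points without 1 mouse. It was -0.145 as a share of summed FPKM over all genes on the mitochondrial chromosome. The cause of these shifts was not tested. The medians of 51 gene lists were refitted to give 918 values, of which 881 moved by less than the spread between libraries. Leaving out 1 mouse can hardly move a median that far, so this count is no measure of stability. The sign of the median changed in 7 of 18 alternatives for fatty acid oxidation. It changed in 6 for endothelial and tendon markers and for steroid receptors, and in 0 for lists such as adipocyte markers. Genes with few reads, such as Odf3l2, are limited by depth.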

Other observations

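Several muscle lists not described above also had 0 calls. Lipid synthesis, from fatty acids to triglycerides, had 18 of 23 genes lower and a median log2 difference of -0.23, and genes of the unfolded protein and stress response were lower in 15 of 24 with a median of -0.11. Over all genes tested 6970 of 13438 were lower and the median was -0.0073. Pnpla3, a lipid droplet protein, had a log2 difference of -0.89 (limma adjusted p = 0.344), and Xbp1, a transcription factor of the unfolded protein response, of -0.58 (limma adjusted p = 0.340).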
